A study of Homo sapiens with 5 samples.

Results

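The immediate early and MAPK feedback genes are 47 genes that cells switch on, or use to damp the signal, when the MAP kinase pathway fires. They were taken by symbol from a fixed list of names, and all 47 were found among the 28442 gene rows of the table. The cells were TOV21G, an established human line of ovarian clear cell carcinoma. RNA was sequenced from 5 libraries, 1 per treatment. The shHDAC6 library came from cells that carried a hairpin against HDAC6, a mainly cytoplasmic deacetylase whose substrates include tubulin. The ACY1215 and CAY10603 libraries came from cells given either of these HDAC6 inhibitors, and the labels group all 3 treatments as repressed HDAC6. The controls were a library from cells with a control hairpin, shControl, and a vehicle library from the drug experiment. Hairpin cells had been selected with 1 µg/ml puromycin and the protocol names no puromycin for the drug arm. The protocol names a pair of hairpins without saying which gave the library, and no label gives a dose or a time of treatment. All 5 libraries share the line and serum-containing medium, and nothing in the labels says that they are separate cultures. In a single line without repeated cultures, differences between libraries cannot be told apart from differences between dishes.

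In the MAP kinase pathway, a growth factor receptor activates RAS, RAF, MEK and ERK in turn, and ERK then drives genes that respond without new protein synthesis. Many of these immediate early genes encode transcription factors, such as the AP-1 subunits FOS and JUN and the zinc finger protein EGR1. Others close a loop: dual-specificity phosphatases (DUSPs) take phosphate off MAP kinases, and Sprouty and SPRED proteins act on the path between receptor and RAF. The PEA3 group of ETS factors, ETV1, ETV4 and ETV5, and the feedback genes DUSP4, DUSP6, SPRY2 and SPRY4 are widely read as a transcript-level gauge of ERK output in tumour cells.

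HDAC6 itself had 29.2 CPM in shHDAC6, 33.1 CPM in ACY1215 and 48.2 CPM in CAY10603, against 47.9 CPM in shControl and 51.0 CPM in vehicle. CPM scales each count by library size, here after TMM normalization. In such bulk libraries, fewer cells that express a gene and less RNA per cell cannot be told apart. Its log2 fold was -0.72 in shHDAC6 over shControl, with a 95% counting interval of -0.81 to -0.63, which covers counting error only. Total counts ran between 43498805 and 57442767 per library. Of 9 markers of clear cell carcinoma and epithelium, 6 averaged 5 CPM or more, while NAPSA, KRT7 and WFDC2 were near 0. Marker lists of leukocytes, endothelium, fibroblasts and erythroid cells had 0 genes at that level, and their largest sum was 5.82 CPM, for fibroblasts in ACY1215. HBA2 was at 0 in all libraries.

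Promoter sequences are given for the members whose data they frame: of the members averaging 5 CPM or more that have a promoter window in the RefSeq table, these 5 had the log2 folds furthest from 0 in the 3 pairs of intervention and control described further on. KLF6, JUN, JUNB and ID2 were also highest, of the drug libraries, in ACY1215. Windows run from 250 bases before the annotated start to 50 after it, in GRCh38.p14, 5′ to 3′ on the gene's strand. Capitals mark exact matches to the motifs searched. KLF6, a zinc finger factor, lies on the minus strand of chromosome 10 (chr10:3785160-3785459), and its window holds an E-box (CACGTG) and an EGR motif (GCGNGGGCG). JUN, the AP-1 subunit, lies on the minus strand of chromosome 1 (chr1:58783998-58784297) and holds the CRE core TGACG. IER2, an early gene with a nuclear product, lies on the plus strand of chromosome 19 (chr19:13150161-13150460) and holds the same core on the opposite strand. ID2, an inhibitor of basic helix-loop-helix factors, lies on the plus strand of chromosome 2 (chr2:8681806-8682105) and holds the EGR motif on the opposite strand. JUNB, a further AP-1 subunit, lies on the plus strand of chromosome 19 (chr19:12791236-12791535) and holds the CRE core and a TATA box (TATAAA).
KLF6: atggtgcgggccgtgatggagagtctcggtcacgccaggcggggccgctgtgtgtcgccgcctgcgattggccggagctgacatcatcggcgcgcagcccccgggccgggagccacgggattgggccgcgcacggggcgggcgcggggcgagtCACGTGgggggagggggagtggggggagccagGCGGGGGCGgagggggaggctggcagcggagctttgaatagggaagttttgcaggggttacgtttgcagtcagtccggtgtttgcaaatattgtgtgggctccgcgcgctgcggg
JUN: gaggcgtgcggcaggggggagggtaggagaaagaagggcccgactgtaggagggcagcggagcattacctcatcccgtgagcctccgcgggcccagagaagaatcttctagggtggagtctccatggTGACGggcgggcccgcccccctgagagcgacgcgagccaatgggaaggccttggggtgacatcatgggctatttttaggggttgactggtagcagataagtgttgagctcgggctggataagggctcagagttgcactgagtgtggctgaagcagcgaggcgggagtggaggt
IER2: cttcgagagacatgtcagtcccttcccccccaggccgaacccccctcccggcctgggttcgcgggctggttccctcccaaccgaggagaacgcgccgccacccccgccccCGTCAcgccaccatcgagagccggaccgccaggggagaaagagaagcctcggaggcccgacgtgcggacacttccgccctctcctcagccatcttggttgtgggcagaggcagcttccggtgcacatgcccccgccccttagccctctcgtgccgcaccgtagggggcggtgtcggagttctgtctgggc
ID2: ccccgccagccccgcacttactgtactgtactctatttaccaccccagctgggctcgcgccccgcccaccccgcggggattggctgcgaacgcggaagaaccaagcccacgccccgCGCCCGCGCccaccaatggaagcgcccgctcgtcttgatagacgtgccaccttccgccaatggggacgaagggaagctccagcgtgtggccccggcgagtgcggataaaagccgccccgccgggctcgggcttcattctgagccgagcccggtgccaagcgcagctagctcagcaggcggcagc
JUNB: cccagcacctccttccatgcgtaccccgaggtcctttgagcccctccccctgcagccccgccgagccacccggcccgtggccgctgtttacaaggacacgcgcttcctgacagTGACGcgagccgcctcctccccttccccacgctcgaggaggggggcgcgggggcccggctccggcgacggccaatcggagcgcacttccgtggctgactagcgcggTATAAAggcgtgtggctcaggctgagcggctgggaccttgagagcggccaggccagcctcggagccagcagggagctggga

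The search covered 8 motifs on both strands in the 36 members of 47 that have a window, and in all 35116 windows of the table. A member was counted if any window of it held the motif, while the shares are of single windows. The counts and shares are thus unlike measures. The CRE core TGACG was present in 24 of the 36 members, and in 24.6% of all windows. It lies inside the full CRE, TGACGTCA, which was present in 5 members (JUND, MAFF, DUSP1, DUSP8 and ZFP36L1) and in 1.85% of windows. The EGR motif was present in 12 members and in 9.43% of windows. The CArG box, the letters read by SRF, was present in 3 members, EGR1, EGR2 and SRF itself, and in 1.29% of windows. TATAAA was present in 8 members and 11.5% of windows, and the E-box in 7 members and 7.26% of windows. The AP-1 motif TGANTCA was present in 2 members, FOSL2 and SPRED2, and in 7.71% of windows. The ETS motif CCGGAAGT was present in 0 members and in 4.14% of windows. These matches describe letters in a window and not binding.

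Levels per transcript length, as the authors' FPKM, show which members were abundant. The highest mean FPKM belonged to IER3, an early gene tied to survival, at 144, followed by ID2 at 114, ID1 at 88.4 and HES1, a Notch target repressor, at 67.7. MYC averaged 61.1 FPKM, SPRY1 57.9 and PHLDA1 51.5. Of the 47 members, 23 averaged at least 10 FPKM and 10 averaged under 1 FPKM. The classical serum-response genes were among the lowest. FOS averaged 1.15 FPKM, EGR1 0.528 and FOSB 0.136, while EGR3 averaged 0.026.

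FOSL2 was the abundant FOS-type subunit. FOSL2 had 51.9, 38.6 and 37.9 FPKM in shHDAC6, ACY1215 and CAY10603, against 41.3 and 42.4 FPKM in shControl and vehicle. FOSL1 was between 2.01 and 3.06 FPKM in the 5 libraries, FOS between 0.93 and 1.62, and FOSB between 0.07 and 0.22. Thus the level of FOSL2 in its lowest library was above that of FOS, FOSL1 or FOSB in any library. Of the JUN-type subunits, JUN was between 22.4 and 33.3 FPKM, JUND between 9.49 and 16.3 and JUNB between 3.14 and 5.15.

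Among phosphatases, DUSP6 and DUSP4 were the most abundant, with means of 36.8 and 33.2 FPKM. DUSP6 acts on ERK in the cytoplasm and DUSP4 is nuclear. DUSP5, which is nuclear and acts on ERK, averaged 13.1 FPKM and the stress-responsive DUSP1 10.3. DUSP10, which acts on JNK and p38, averaged 7.46 FPKM, and DUSP8 and DUSP2 averaged 0.614 and 0.182.

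**Figure D1:**
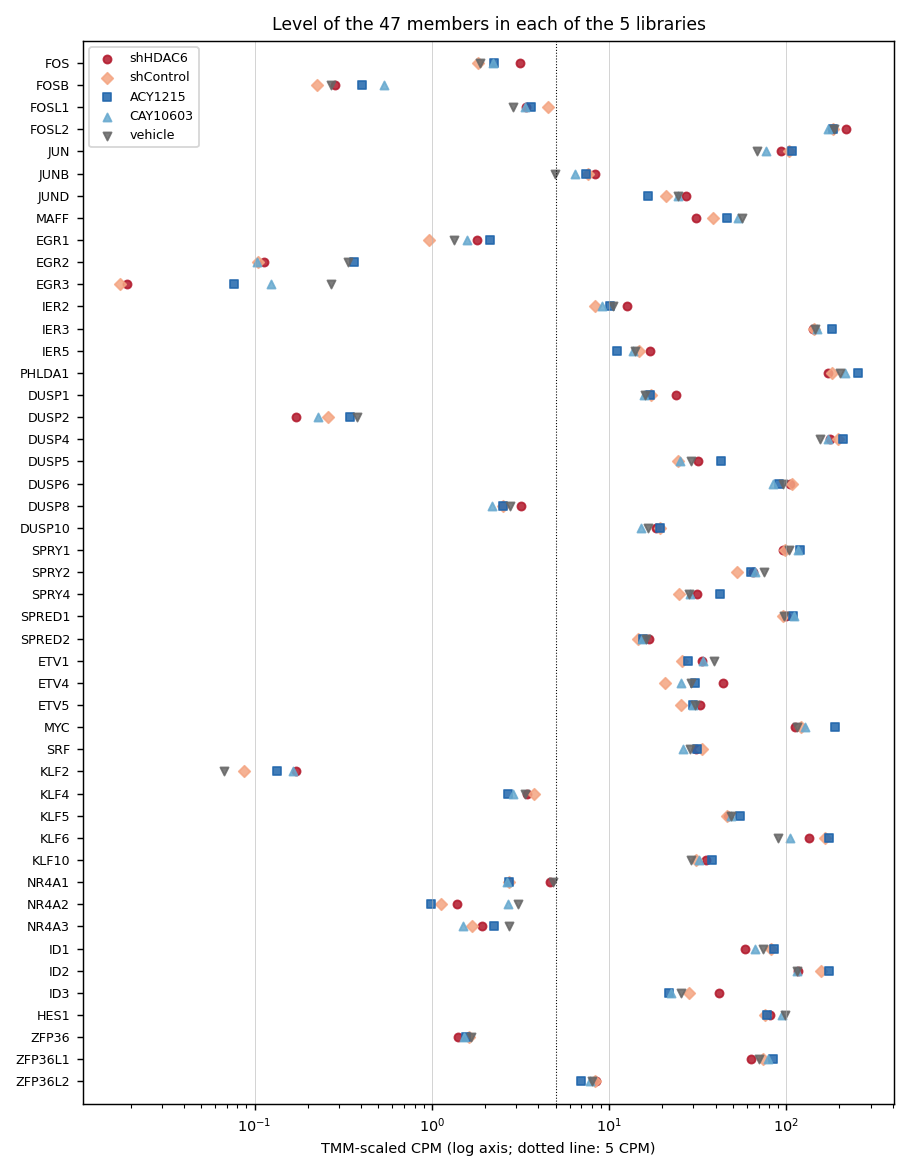
TMM-scaled CPM of each of the 47 members (rows, in order of role) in the 5 libraries (symbols), on a log axis, with a dotted line at 5 CPM. The 33 members averaging 5 CPM or more lie mostly right of the line, and FOS, EGR1 to EGR3, the NR4A receptors and ZFP36 are among the 14 left of it.

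With all 3 interventions set against both controls, no member passed a test. The fit was edgeR's quasi-likelihood test with experiment type (hairpin or drug) as a covariate, over genes that reached 1 CPM in 2 or more libraries. Of 13449 genes tested, 0 had an adjusted p under 0.05 (0.00% called) and 100 had an unadjusted p under 0.05 (0.744%). Of the 42 members tested, 0 passed either limit, and DESeq2 and limma-voom also gave 0 members at either limit. EGR1 had the smallest p among members, with a log2 fold of 0.65 and a standard error of 0.37 (unadjusted p = 0.125, edgeR adjusted p = 0.9995). MAFF, with -0.24 and a standard error of 0.14, SPRY4, with 0.33 and 0.20, and ETV4, with 0.42 and 0.26, had edgeR p values of 0.140, 0.141 and 0.156, and each had an adjusted p of 0.9995. The fit has 2 residual degrees of freedom, and the 3 treatments in the repressed group are not copies of one another. HDAC6, the targeted gene, had a log2 fold of -0.50 in it (edgeR unadjusted p = 0.048, adjusted p = 0.9995). The fit thus did not call the targeted gene either, so the lack of calls among members does not show that they were unchanged.

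By TMM-scaled CPM, SPRY4, SPRED1 and KLF10 were higher in all 3 interventions than in both controls. They were the only 3 of 33 members, against 4.92% of all genes. SPRY4 had 31.6, 42.2 and 28.8 CPM in shHDAC6, ACY1215 and CAY10603, and 24.9 and 28.4 CPM in shControl and vehicle. CAY10603 and vehicle were nearly level, so its groups only just fail to overlap. On the authors' FPKM the groups did overlap, with SPRY4 at 6.01 in CAY10603 and 6.12 in vehicle. SPRED1 had 99.995, 109.8 and 111 CPM in the interventions and 95.5 and 98.0 CPM in the controls. Its log2 fold in shHDAC6 over vehicle was 0.03 (-0.03 to 0.09), an interval that spans 0. KLF10, a TGF-beta-inducible zinc finger factor, had 35.1, 38.0 and 32.4 CPM in the interventions and 31.1 and 29.3 CPM in the controls. Its log2 fold in CAY10603 over shControl was 0.06 (-0.04 to 0.16), which also spans 0. Lower in all 3 interventions than in both controls were 0 members, against 4.57% of all genes.

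The rest of the comparisons set 1 library against 1 library and carry no test and no replicate check. Log2 folds are of TMM-scaled CPM after adding a prior count of 2. They are given for the 10738 genes whose mean was 5 CPM or more. Of the members, 33 were past that floor. In shHDAC6 over shControl, 19 members were higher and 14 lower, with a median log2 fold of 0.07, against 0.00 for all genes. The share of all genes higher was 50.7%. At least 2-fold apart was 1 member, ETV4, against 0.689% of all genes. At least 1.5-fold higher were 2 members, ETV4 and IER2, against 2.81% of all genes, and 0 were at least 1.5-fold lower, against 2.20%. On the authors' FPKM the 2 members were ETV4 and ETV1, and IER2 had a log2 fold of 0.57.

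In ACY1215 over vehicle, 20 members were higher and 13 lower, with a median log2 fold of 0.16. Of all genes, 49.96% were higher in ACY1215 over vehicle, with a median of -0.0003. At least 2-fold apart were 0 members, against 4.70% of all genes. At least 1.5-fold higher were 4 members, KLF6, MYC, JUN and ID2, against 5.85% of all genes. At least 1.5-fold lower were 0 members, against 7.77%. Under scaling by library totals, and likewise on the authors' FPKM, the members at least 1.5-fold apart were 2 higher, KLF6 and MYC, and 2 lower, JUND and ETV1. When libraries were scaled by their totals alone, the median of all genes moved by -0.10 and 18 members were higher and 15 lower. The share of all genes higher was then 37.3%. In CAY10603 over vehicle, 13 members were higher and 20 lower, with a median of -0.03. Of all genes, 51.5% were higher in that pair, with a median of 0.005. Under scaling by totals, 10 members were higher and 23 lower, against 38.0% of all genes higher. With TMM scaling, 0 members were at least 2-fold apart in that pair, against 0.270% of all genes. At least 1.5-fold apart were 0 members, against 1.04%. Both drug comparisons use the same vehicle library.

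**Figure D2:**
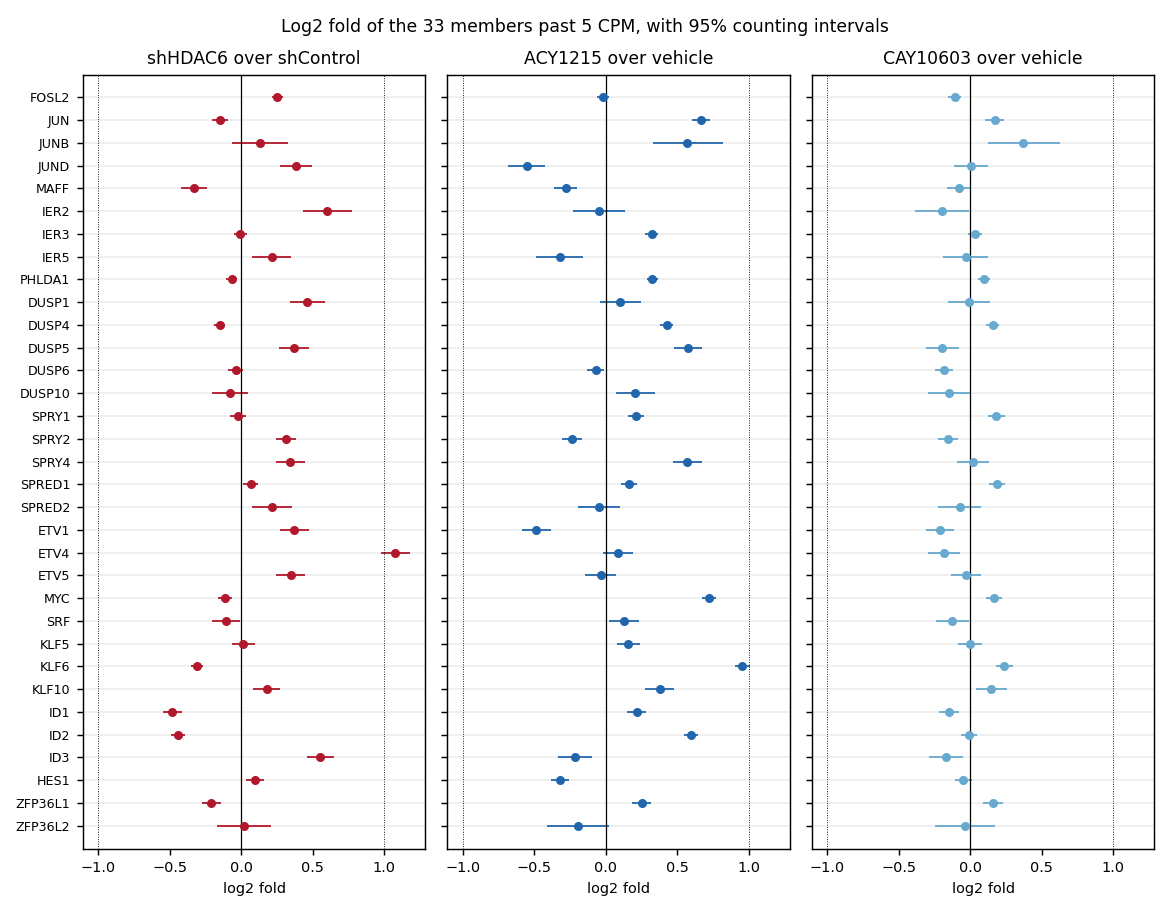
Log2 fold of TMM-scaled CPM of the 33 members past 5 CPM (rows, in order of role) in shHDAC6 over shControl, ACY1215 over vehicle and CAY10603 over vehicle, with bars for 95% counting intervals and dotted lines at 2-fold. ETV4 lies past 2-fold in the hairpin pair, KLF6 reaches 0.96 in the ACY1215 pair, and the CAY10603 pair spans -0.21 (ETV1) to 0.37 (JUNB).

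The PEA3 group, by summed FPKM, was highest in shHDAC6. ETV4 had 44.0, 30.7 and 25.5 CPM in shHDAC6, ACY1215 and CAY10603, and 20.9 and 28.9 CPM in shControl and vehicle. The shHDAC6 value stands above the other 4 libraries, and shControl holds the lowest value. The log2 fold in shHDAC6 over shControl was 1.08 (95% counting interval 0.98 to 1.18). Set against vehicle in place of shControl, it was 0.60. ETV4 was the only member of 33 at least 1.5-fold above both controls in shHDAC6, against 0.494% of all genes. On the authors' FPKM its log2 fold over vehicle was 0.48 and that count was 0. The log2 folds of ETV4 over vehicle were 0.09 in ACY1215 and -0.18 in CAY10603.

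ETV5 and ETV1 shared the direction in the hairpin pair at smaller size. ETV5 had 32.6, 29.8 and 29.9 CPM in shHDAC6, ACY1215 and CAY10603, and 25.7 and 30.6 CPM in shControl and vehicle, and its log2 fold in shHDAC6 over shControl was 0.35 (0.25 to 0.45). ETV1 had 33.7, 28.0 and 33.8 CPM in the interventions and 26.0 and 39.2 CPM in shControl and vehicle, and its log2 fold in that pair was 0.37 (0.27 to 0.47). On the authors' FPKM the ETV1 log2 fold was 0.78. By CPM, shControl was the lowest of the 5 libraries in all 3 genes of the group, while by FPKM ETV1 was lowest in ACY1215, at 5.71 against 5.89 in shControl. With vehicle in place of shControl the log2 folds in shHDAC6 were 0.09 for ETV5 and -0.22 for ETV1, and on FPKM the ETV1 value had the other sign, at 0.12. Summed over the group, FPKM was 54.0, 37.6 and 36.3 in shHDAC6, ACY1215 and CAY10603, and 30.0 and 42.7 in shControl and vehicle.

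ETV4 overlaps DHX8, an RNA helicase gene on the opposite strand, and whether reads were counted by strand is not stated. DHX8 had 97.3 CPM in shHDAC6 and 88.9 CPM in shControl, a log2 fold of 0.13. In all, 16 members are overlapped by a gene on the opposite strand in the annotation, 4 of them by a protein-coding gene. Those are ETV4 with DHX8, FOSB with ERCC1, JUNB with HOOK2 and MAFF with PLA2G6. HOOK2 had 12.5 CPM in ACY1215 and 15.3 CPM in vehicle, while JUNB had 7.43 and 4.996 CPM there. PLA2G6 had 5.80 CPM in shHDAC6 and 3.81 CPM in shControl, while MAFF had 30.9 and 38.8 CPM. The part of the opposite strand in these values was not tested.

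The JUN-type subunits of AP-1 differed in direction in the ACY1215 library. JUN had 93.8, 109 and 77.1 CPM in shHDAC6, ACY1215 and CAY10603, and 104 and 68.5 CPM in shControl and vehicle. The ACY1215 library was above vehicle with a log2 fold of 0.66 (0.60 to 0.73), yet shControl was nearly as high. JUNB had 8.39, 7.43 and 6.47 CPM in the interventions and 7.66 and 4.996 CPM in shControl and vehicle, so vehicle alone was low. Its log2 folds over vehicle were 0.57 (0.33 to 0.82) in ACY1215 and 0.37 (0.12 to 0.63) in CAY10603. JUND, which is often steadily expressed, had 27.4, 16.7 and 24.6 CPM in the interventions and 20.9 and 24.5 CPM in the controls. ACY1215 was thus the lowest library for JUND, with a log2 fold over vehicle of -0.55 (-0.68 to -0.42), opposite in sign to JUN.

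FOSL2 was highest in shHDAC6, at 219 CPM against 184 CPM in shControl, a log2 fold of 0.25 (0.21 to 0.29). Its log2 folds over vehicle were -0.02 in ACY1215 and -0.11 in CAY10603. MAFF, a small MAF protein, had 30.9, 46.6 and 53.5 CPM in the interventions and 38.8 and 56.6 CPM in shControl and vehicle. Both hairpin libraries were below all 3 drug-arm libraries for MAFF. FOS, under the floor, had 167, 118 and 108 counts in the interventions and 105 and 84 counts in shControl and vehicle. Its log2 fold in shHDAC6 over shControl was 0.78 (0.44 to 1.16), on few counts. FOSL1 had 181, 190 and 162 counts in the interventions and 260 and 128 counts in shControl and vehicle, so the extremes were the controls. FOSB had between 12 and 26 counts in the 5 libraries.

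EGR1, with 95, 111 and 77 counts in shHDAC6, ACY1215 and CAY10603 and 56 and 60 counts in shControl and vehicle, was higher in each intervention in raw counts. On the CPM scale it had 1.80, 2.13 and 1.59 in the interventions and 0.971 and 1.34 in the controls. Its log2 folds were 0.86 (0.40 to 1.39) in shHDAC6 over shControl, 0.65 (0.20 to 1.14) in ACY1215 over vehicle and 0.24 (-0.26 to 0.76) in CAY10603 over vehicle. The last interval spans 0. EGR2 had between 5 and 19 counts, and EGR3 had 1, 4 and 6 counts in the interventions and 1 and 12 counts in shControl and vehicle. EGR2 and EGR3 had too few counts for a fold to be given.

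Of the IER genes and PHLDA1, the direction differed between the treatments. IER2 had 12.6, 10.2 and 9.18 CPM in shHDAC6, ACY1215 and CAY10603, and 8.30 and 10.5 CPM in shControl and vehicle. Its log2 fold in shHDAC6 over shControl was 0.60 (0.43 to 0.78), and 0.26 with vehicle in place of shControl. IER5 had 17.1, 11.2 and 13.7 CPM in the interventions and 14.8 and 13.98 CPM in the controls, and was highest in shHDAC6 and lowest in ACY1215. IER3 had 183 CPM in ACY1215 and between 143 and 149.8 CPM in the other 4 libraries, with a log2 fold over vehicle of 0.32 (0.28 to 0.37). PHLDA1, a pleckstrin homology-like protein, had 172, 253 and 216 CPM in the interventions and 181 and 202 CPM in shControl and vehicle. ACY1215 was the highest library for both IER3 and PHLDA1.

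Among the DUSP, Sprouty and SPRED members, DUSP5 and SPRY4 were furthest above both controls in ACY1215. DUSP5 had 31.9, 43.2 and 25.3 CPM in shHDAC6, ACY1215 and CAY10603, and 24.7 and 28.99 CPM in shControl and vehicle. Its log2 folds were 0.57 (0.48 to 0.67) in ACY1215 over vehicle and 0.81 with shControl in place of vehicle. In CAY10603 over ACY1215 it was -0.77 (-0.87 to -0.67), the lowest of the 33 members in that pair. SPRY4, a Sprouty protein, gave log2 folds of 0.57 (0.47 to 0.67) over vehicle and 0.76 over shControl in ACY1215. In shHDAC6 over shControl SPRY4 gave 0.34 (0.24 to 0.45), and in CAY10603 over vehicle 0.02 (-0.09 to 0.13).

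DUSP6 did not share this pattern: it had 105, 91.4 and 84.6 CPM in the interventions and 108 and 96.0 CPM in the controls. Both drug libraries were below vehicle for DUSP6, with log2 folds of -0.07 and -0.18 in ACY1215 and CAY10603. DUSP4 had 178, 208 and 173 CPM in the interventions and 197 and 155 CPM in shControl and vehicle. Its log2 fold in ACY1215 over vehicle was 0.43 (0.38 to 0.47), but 0.08 with shControl in place of vehicle. DUSP1 was highest in shHDAC6, at 23.8 CPM against 17.3 CPM in shControl, a log2 fold of 0.46 (0.34 to 0.58). The other 3 libraries of DUSP1 lay between 15.9 and 17.1 CPM. DUSP10 stayed between 15.1 and 19.6 CPM, DUSP8 had between 106 and 168 counts and DUSP2 between 9 and 18 counts.

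Among Sprouty and SPRED genes other than SPRY4, SPRY2 varied most between the controls. SPRY2 had 65.4, 63.4 and 67.1 CPM in the interventions and 52.7 and 74.7 CPM in shControl and vehicle, so all 3 lay between the controls. Its log2 fold was 0.31 in shHDAC6 over shControl and -0.50 in shControl over vehicle. SPRY1 had 96.6, 119.8 and 118 CPM in the interventions and 98.2 and 104 CPM in the controls. SPRED2 ranged between 14.5 and 16.8 CPM, a log2 range of 0.21 that was the smallest of the 33 members. Set against shControl, all 5 Sprouty and SPRED genes were higher in ACY1215, with a median log2 fold of 0.27, while against vehicle 3 were higher and 2 lower.

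MYC, like DUSP5 and SPRY4, was higher in ACY1215 than in either control. It had 112, 189 and 129 CPM in shHDAC6, ACY1215 and CAY10603, and 121 and 115 CPM in shControl and vehicle. ACY1215 lies well above the other 4 libraries, which are close together. The log2 fold in ACY1215 was 0.72 (0.67 to 0.77) over vehicle and 0.64 over shControl. MYC was the only member of 33 at least 1.5-fold above both controls in ACY1215, against 2.65% of all genes, and under scaling by library totals or on the authors' FPKM that count was 0. On FPKM the log2 fold of MYC in ACY1215 over shControl was 0.56. SRF, which binds CArG boxes, had 31.2, 31.4 and 26.4 CPM in the interventions and 33.6 and 28.7 CPM in the controls, a narrow spread.

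**Figure D3:**
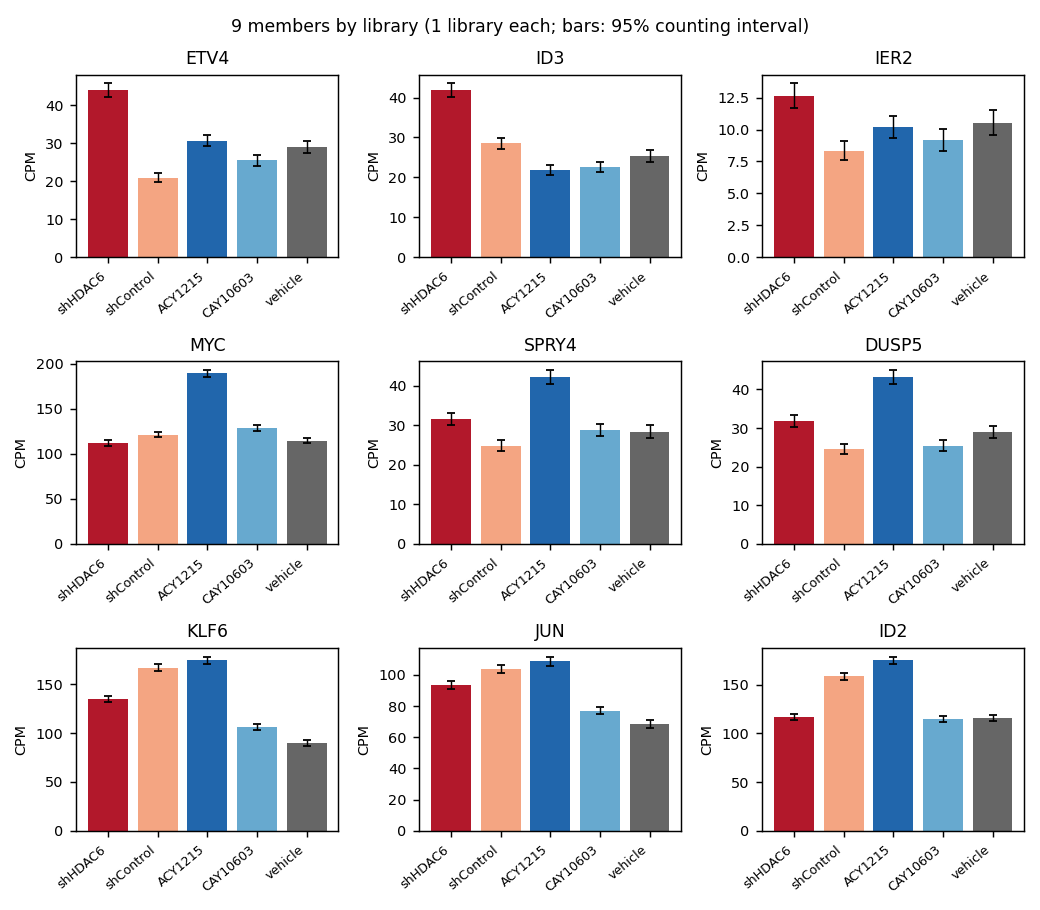
TMM-scaled CPM of 9 members in each library (bars, 1 library each, with 95% Poisson counting intervals): shHDAC6, shControl, ACY1215, CAY10603 and vehicle. ETV4 and ID3 peak in shHDAC6, MYC, DUSP5 and SPRY4 peak in ACY1215, and KLF6, JUN and ID2 are high in both ACY1215 and shControl.

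KLF6 had the largest log2 fold of the members in the ACY1215 pair. It had 135, 174 and 106 CPM in shHDAC6, ACY1215 and CAY10603, and 167 and 89.8 CPM in shControl and vehicle. ACY1215 and shControl were nearly level at the top and vehicle was lowest. The log2 fold in ACY1215 was 0.96 (0.90 to 1.01) over vehicle and 0.06 over shControl, and in CAY10603 over vehicle it was 0.24 (0.18 to 0.30). In shHDAC6 over shControl it was -0.31 (-0.35 to -0.27). KLF5, an epithelial zinc finger factor, ranged between 46.7 and 54.7 CPM and was highest in ACY1215. KLF10 in ACY1215 gave a log2 fold of 0.38 (0.28 to 0.48) over vehicle. KLF4 had between 139 and 218 counts and KLF2 between 3 and 9 counts.

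The NR4A orphan nuclear receptors were low, and all 3 averaged under the floor. NR4A1 had 247, 142 and 129 counts in shHDAC6, ACY1215 and CAY10603, and 157 and 216 counts in shControl and vehicle. Its log2 folds were 0.77 (0.49 to 1.08) in shHDAC6 over shControl, -0.82 (-1.15 to -0.52) in ACY1215 over vehicle and -0.85 (-1.19 to -0.54) in CAY10603 over vehicle. With the controls exchanged they were near 0, at -0.05 in shHDAC6 over vehicle. Over shControl they were -0.0009 in ACY1215 and -0.03 in CAY10603. NR4A2 had 73, 52 and 131 counts in the interventions and 65 and 137 counts in shControl and vehicle. CAY10603 and vehicle were thus the high libraries for NR4A2, and ACY1215 was near the hairpin libraries. With the floor lowered to 1 CPM, NR4A2 was the only member of 42 at least 2-fold apart in ACY1215 over vehicle, at -1.59 (-2.11 to -1.15), against 7.28% of 13244 genes. NR4A3 had 101, 117 and 73 counts in the interventions and 97 and 122 counts in the controls.

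The ID proteins, which bind basic helix-loop-helix factors and keep them off DNA, split in the hairpin pair. ID1 had 58.5, 85.8 and 66.6 CPM in shHDAC6, ACY1215 and CAY10603, and 81.8 and 73.8 CPM in shControl and vehicle. ID3 had 41.8, 21.8 and 22.6 CPM in the interventions and 28.5 and 25.4 CPM in the controls. So shHDAC6 held the lowest ID1 and the highest ID3 of the 5 libraries. The log2 folds in shHDAC6 over shControl were -0.48 (-0.55 to -0.42) for ID1 and 0.55 (0.46 to 0.65) for ID3. ID3 was also 0.72 above vehicle on the log2 scale in shHDAC6. ID2 had 117, 175 and 115 CPM in the interventions and 158 and 116 CPM in shControl and vehicle. ACY1215 and shControl were the high libraries for ID2, and its log2 fold in ACY1215 was 0.60 (0.55 to 0.65) over vehicle and 0.14 over shControl. HES1 had 81.5, 78.6 and 94.9 CPM in the interventions and 76.3 and 98.1 CPM in shControl and vehicle.

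The TTP family, which binds AU-rich mRNA and promotes its decay, varied little. ZFP36L1 had 63.8, 84.2 and 79.0 CPM in shHDAC6, ACY1215 and CAY10603, and 73.8 and 70.8 CPM in shControl and vehicle. ZFP36L2 ranged between 6.99 and 8.43 CPM, and ZFP36 had between 74 and 94 counts.

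The hairpin and ACY1215 pairs share no library, and 23 of 33 members had opposite signs in them. Of all genes, 61.3% had opposite signs. Members were highest of the 5 libraries most often in ACY1215 (14 of 33, or 42.4%, against 27.5% of all genes) and in shHDAC6 (11 of 33, or 33.3%, against 25.8%). They were lowest most often in shControl (11 of 33, or 33.3%, against 15.5%). The log2 range over the 5 libraries had a median of 0.55 in members and 0.44 in all genes.

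The controls also differed from each other. In shControl over vehicle, 0 members were at least 2-fold apart, against 1.42% of all genes. At least 1.5-fold apart were 4 members, against 6.72% of all genes, and 2 of them, KLF6 and ETV1, under scaling by library totals or on FPKM. KLF6 was higher in shControl by a log2 fold of 0.90 (0.84 to 0.95), JUNB by 0.61 and JUN by 0.60, and ETV1 was lower at -0.59. The ACY1215 pair shares the vehicle library, and there KLF6, JUNB, JUN and ETV1 gave 0.96, 0.57, 0.66 and -0.49. Experiment type, hairpin or drug, goes with the choice of control, and its part in these values was not tested.

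**Figure D4:**
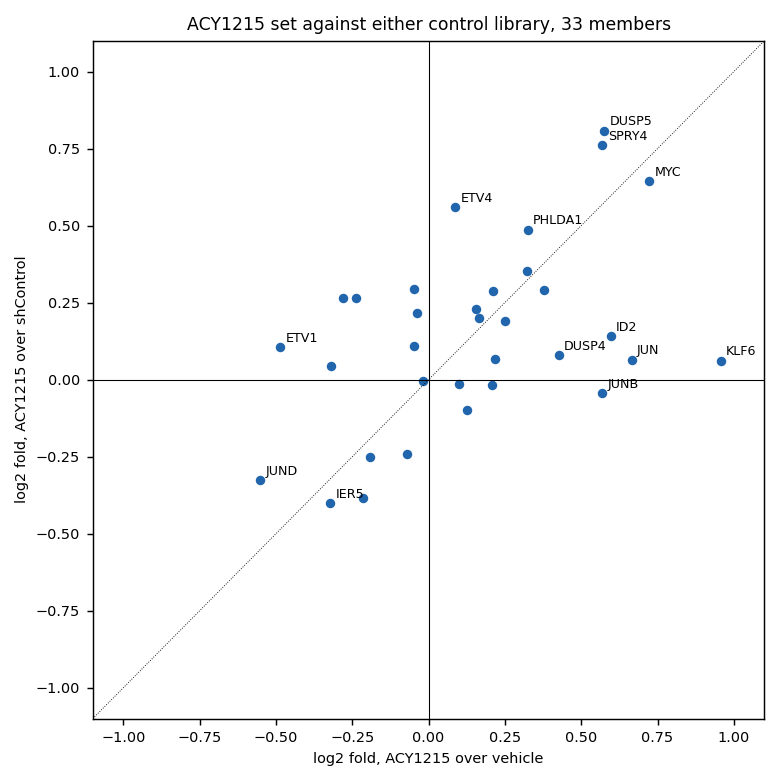
Log2 fold of the 33 members past 5 CPM in ACY1215 over vehicle (x axis) and in ACY1215 over shControl (y axis), with a dotted line of equal values. MYC, DUSP5 and SPRY4 lie high on both axes, while KLF6 lies at 0.96 on the x axis and 0.06 on the y axis, and JUN, JUNB and ID2 lie near 0 on the y axis too.

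The 2 inhibitors were set side by side with doses and times unknown, so the values describe these 2 libraries only. In CAY10603 over ACY1215, 10 members were higher and 23 lower, with a median log2 fold of -0.15, against 0.00 for all genes. At least 2-fold apart were 0 members, against 3.28% of all genes. At least 1.5-fold lower in CAY10603 were 3 members, DUSP5, KLF6 and ID2, against 4.46% of all genes. Under scaling by library totals or on FPKM, DUSP5 and KLF6 were at least 1.5-fold lower and JUND at least 1.5-fold higher. KLF6 gave -0.72 (-0.77 to -0.67) and ID2 -0.60 (-0.65 to -0.56). MYC gave -0.56 (-0.60 to -0.51) and SPRY4 -0.55 (-0.65 to -0.45), while JUND gave 0.56 (0.43 to 0.68) in the other direction.

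The rest of the pathway was followed in 8 further lists of 130 genes, of which 109 were past the floor. The lists were chosen with earlier results of these data known. Their counts are thus not independent of these values, and the shares of all genes beside them are for description only. In shHDAC6 over shControl, 53 of the 109 were higher and 56 lower, and 3 were at least 1.5-fold higher, ELK1, PER1 and UPP1, against 2.81% of all genes, with 0 at least 1.5-fold lower, against 2.20%. ELK1, the ETS partner of SRF, had 19.0 CPM in shHDAC6 and 11.2 CPM in shControl, a log2 fold of 0.77 (0.63 to 0.91). PER1, a circadian gene that is also an early gene, gave 0.76 (0.52 to 1.01), and UPP1, a uridine phosphorylase gene, gave 0.62. In ACY1215 over vehicle, 68 were higher and 41 lower, with 6 at least 2-fold higher, against 1.67% of all genes, and 1 at least 2-fold lower, against 3.04%. In CAY10603 over vehicle, 58 were higher and 51 lower, and 0 were at least 1.5-fold apart, against 1.04% of all genes.

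Ligands that feed the receptor end of the pathway made up 3 of those 6 genes. AREG, an EGFR ligand, had 8.88, 34.4 and 8.35 CPM in shHDAC6, ACY1215 and CAY10603, and 8.86 and 7.84 CPM in shControl and vehicle. ACY1215 alone was high, with log2 folds of 2.13 (1.97 to 2.30) over vehicle and 1.95 over shControl. EREG had 184, 516 and 170.4 CPM in the interventions and 255 and 188 CPM in the controls, with a log2 fold in ACY1215 over vehicle of 1.45 (1.42 to 1.49). HBEGF had 10.8, 17.6 and 10.6 CPM in the interventions and 15.8 and 7.28 CPM in shControl and vehicle. Its log2 fold in ACY1215 was 1.27 over vehicle and 0.16 over shControl. All 7 ligands past the floor were higher in ACY1215 than in vehicle, with a median log2 fold of 0.68, and with shControl in place of vehicle 5 were higher and 2 lower. In shHDAC6 over shControl, 6 of the 7 were lower, with a median of -0.33, and in CAY10603 over vehicle 4 were higher and 3 lower.

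The other 3 were PLAUR, CYR61 and TIPARP. PLAUR, the urokinase receptor, had 3.05, 21.1 and 4.71 CPM in the interventions and 3.42 and 3.83 CPM in the controls, and its log2 fold in ACY1215 over vehicle was 2.45 (2.23 to 2.70). PLAUR passed the floor through ACY1215 alone, so its place among the 6 follows in part from the filter, and without it 5 genes were at least 2-fold higher. CYR61, a matrix-associated early gene, gave 1.12 (1.04 to 1.21) over vehicle and 0.56 over shControl in ACY1215. TIPARP gave 1.01 (0.95 to 1.07) over vehicle and 1.05 over shControl. The gene at least 2-fold lower in ACY1215 was MAP2K6, a kinase that activates p38, with 18.5, 8.08 and 12.01 CPM in the interventions and 16.5 and 16.8 CPM in the controls. Its log2 fold over vehicle was -1.05 (-1.23 to -0.88).

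The core of the ERK cascade, 22 genes past the floor, was split evenly in ACY1215 over vehicle, with 11 higher and 11 lower and a median log2 fold of 0.00. SHC1, an adaptor of receptor kinases, gave 0.84 (0.79 to 0.89) and the small GTPase RRAS gave 0.62 (0.52 to 0.72). In shHDAC6 over shControl the core was split 11 and 11 too, and MAPK3, the gene of ERK1, gave 0.30. Kinases and factors below ERK were 9 higher and 6 lower in both pairs. ETS1 gave 0.59 and ELK3 0.45 in ACY1215 over vehicle. Of the other MAP kinase modules, 11 of 13 genes were higher in shHDAC6 over shControl, with a median of 0.18, and 6 of 13 in ACY1215 over vehicle.

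Among further phosphatases and brakes, 9 of 13 genes were higher in ACY1215 than in vehicle, with a median of 0.13, led by IL17RD at 0.95 and RASAL2 at 0.69. IL17RD, also called SEF, is an inhibitor of FGF signalling. It gave 0.55 in CAY10603 over vehicle. Of 22 further immediate early genes, 10 were higher and 12 lower in ACY1215 over vehicle and likewise in shHDAC6 over shControl. Of 5 targets linked to growth and invasion, PLAUR left aside, 5 were higher in ACY1215 than in vehicle, with a median of 0.13, while with shControl in place of vehicle 1 was higher and 4 lower. SRF and MRTF cytoskeletal targets were higher in ACY1215 than in vehicle in 10 of 11 genes, with a median of 0.38 and TPM1, a tropomyosin, at 0.93. In shControl over vehicle all 11 were higher, with a median of 0.37, and in ACY1215 over shControl 6 were higher and 5 lower. The shares of all genes higher were 52.3% in shControl over vehicle and 47.2% in ACY1215 over shControl.

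**Figure D5:**
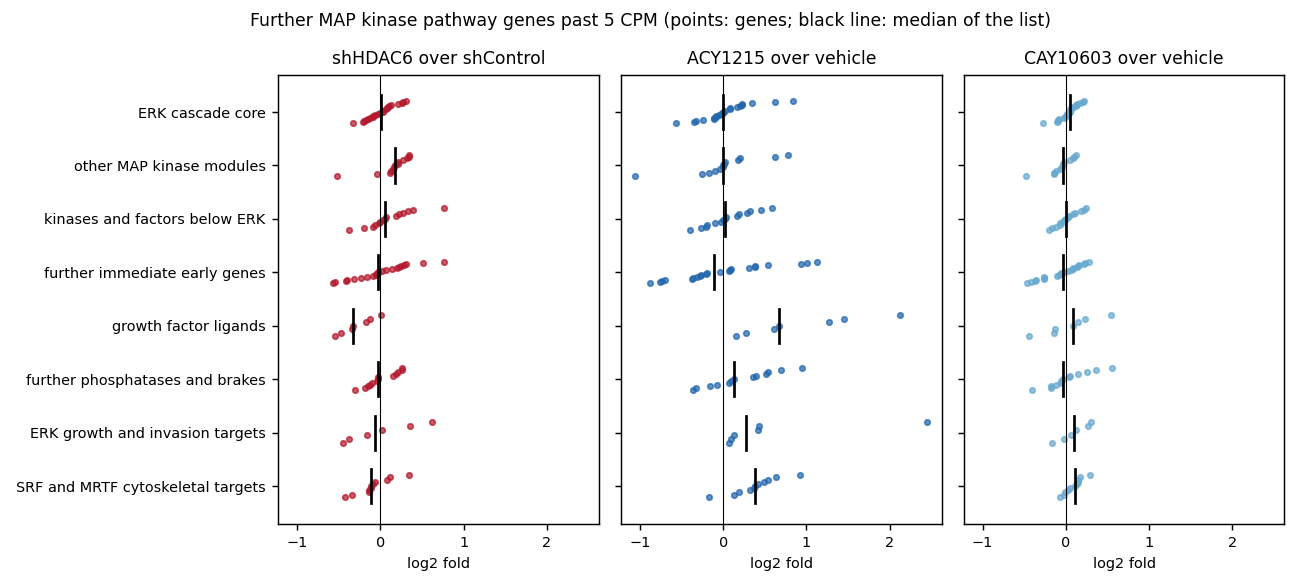
Log2 fold of the 109 further pathway genes past 5 CPM (points) by list (rows) in shHDAC6 over shControl, ACY1215 over vehicle and CAY10603 over vehicle, with a black line at the median of each list. The growth factor ligands have medians of -0.33, 0.68 and 0.09 in the 3 pairs, and PLAUR lies furthest right at 2.45 in the ACY1215 pair.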

How the data were processed

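The authors deposited expected counts for each gene, in whole numbers, and FPKM with 2 decimals, both named per the file headers. RSEM 1.2.3, edgeR and hg19 are named in the submitters' processing notes. No source used here names the aligner, the annotation or the strand setting. Libraries were stranded total RNA from Trizol extracts, per the labels' protocols. The column headed DMSO was read as vehicle. Columns of unknown samples numbered 0, and 2 blank rows were left out. Expected counts were used as deposited. The pooled fit used edgeR 4.0.16 in R 4.3.3, checked on simulated data, with DESeq2 1.42.0 and limma 3.58.1 as alternatives. TMM factors came from genes that reached 1 CPM in 2 or more libraries. Pair folds carry exact binomial 95% counting intervals, and single levels exact Poisson ones. Fold changes of the authors' FPKM use log2(FPKM + 0.1). Members were described by role. From each further list and pair, up to 4 genes at least 2-fold apart qualified for naming, or the 2 furthest from 0 where none was. Counts of the further lists past 1.5-fold were added after values were seen. The members and lists were chosen with earlier results of these data known. The annotation at hand is of another build than hg19, so it served for overlaps and promoter windows only. Some genes of the further lists and markers are not reported here.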

Additional observations from a re-analysis of the deposited data

Results flagged for a closer look

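Of the members past the floor and the further genes named, 8 had opposite signs in ACY1215 over vehicle and in shHDAC6 over shControl, with both counting intervals clear of 0 and log2 folds at least 1 apart. Of all 10738 genes past the floor, 847 (7.89%) met the same conditions, and of the 33 members 2 did (6.06%). The further genes had been named for large folds, so no share is read from them. With 1 library on each side, none of these differences was tested. Values are the log2 fold in ACY1215 over vehicle minus that in shHDAC6 over shControl. Among the members, the difference was 1.27 for KLF6 (0.96 and -0.31 in the ACY1215 and hairpin pairs) and 1.04 for ID2 (0.60 and -0.44). Among ligands, it was 1.92 for EREG and 1.82 for HBEGF. CYR61 differed by 1.44 and TPM1 by 1.27. MAP2K6 differed by -1.22 and TRIB1, a pseudokinase gene, by -1.28. Of these genes, shControl was itself above vehicle for KLF6, ID2, EREG, HBEGF, CYR61 and TPM1, and below it for TRIB1.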

How the results depend on the processing

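The number of members called in the pooled test was 0 under RLE size factors, DESeq2, limma-voom, no filter on low counts and no covariate. It was also 0 with each intervention library left out. Those refits keep the covariate and have fewer residual degrees of freedom, so they could hardly call a member. Without shHDAC6, the covariate takes up the shControl library and the contrast rests on the drug arm. Leaving out a control library leaves 1 control, so no count is given. Over all genes the same test gave 0 calls, and between 0 and 4 when 1 intervention library was left out, with 4 without the ACY1215 library. The count of members at least 2-fold apart in shHDAC6 over shControl, 1, became 2 at a 1.5-fold limit and 0 with vehicle in place of shControl. In ACY1215 over vehicle, 0 became 4 at 1.5-fold and 1 with a floor of 1 CPM. In CAY10603 over ACY1215, 0 became 3 at 1.5-fold and 1 with that floor. In shControl over vehicle, 0 became 4 and 1. The member added by the lower floor was NR4A2 each time. RLE factors and prior counts of 0.5 or 10 moved 0 of 165 member folds beyond their counting intervals, scaling by library size moved 33 and the authors' FPKM 47. With the other control library, 48 of 66 drug folds and 24 of 33 hairpin folds moved beyond them. With scaling by library totals or FPKM, chosen after seeing the data, the members at least 1.5-fold apart in shControl over vehicle numbered 2 in place of 4. Members at least 1.5-fold above both controls then numbered 0 in place of 1 in ACY1215 under either, and 0 in place of 1 in shHDAC6 on FPKM. No paired analysis was possible because the labels give no replicate numbers shared by the groups. Experiment type was a covariate of the pooled fit instead. With 1 library per treatment, counting intervals say nothing of the spread between cultures.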
